A study of Mus musculus with 6 samples.

Results

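The interleukin-6 (IL-6) family was examined in bulk RNA-seq of MC38 tumors through 10 genes chosen by name from the deposited table. They are the cytokines Il6, Il11, Osm and Lif, the receptors Il6ra, Il11ra1, Osmr, Lifr and Il6st, and the inhibitor Socs3. All 10 were found, each in 1 row of the 33965 genes in the table, and 9 had enough counts to be tested among 19602 genes. MC38 cells, a line from a mouse colon carcinoma, were grown under the skin of female C57BL/6 mice bought at 6 weeks of age, and their age at treatment is not given in the sources used here. The 3 PBS tumors came from mice given vehicle and the 3 GB2 tumors from mice given GB2, a prodrug that links the STING agonist MSA-2 to the TREM2 inhibitor artesunate through a disulfide bond. GB2 was injected intravenously, at 10 mg/kg in the MC38 model, and the labels give neither dose nor time for the sequenced tumors. The mice carry no other alleles or agents according to the labels, and each library is listed as a separate tumor, although nothing states that each came from its own mouse. The p-values therefore measure only the spread between these samples, and because whole tissue was sequenced, fewer cells of a type and less RNA per cell cannot be told apart.

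IL-6 family cytokines share the signaling receptor gp130, which Il6st encodes. IL-6 and IL-11 first bind their own receptors, encoded by Il6ra and Il11ra1, while oncostatin M and leukemia inhibitory factor join gp130 to the OSMR or LIFR chain. Ligand binding activates JAK kinases and STAT3, and STAT3 induces Socs3, whose protein binds gp130 and JAKs and shuts the signal off. In tumors, macrophages, neutrophils, fibroblasts and endothelial cells are known sources of these ligands, and stromal cells are known to respond to them.

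Total estimated counts ran from 64764405 to 83690056 per tumor, with all 3 GB2 libraries above the PBS libraries in size, and about 4 counts stand for 1 read pair. Values are given as CPM, counts scaled to a common library size, or as FPKM where genes are compared with each other. PBS tumor 1 stood apart on the first principal component of all genes (34.0% of the variance), and GB2 tumor 1 was far lower in Alb, the liver albumin gene, at 1.30 CPM (109 counts) against 200 to 361 CPM in the other 5 tumors. Alb was picked after its values were seen. The epithelial markers of the carcinoma summed to between 12.9 and 19.5 CPM in all 6 tumors, and Krt19 and Cdx2 were too low to test.

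In level per length, 3 members lay apart from the others. Il6st (mean over the 6 tumors 8.39 FPKM ± 2.46, SD), Il11ra1 (8.12 ± 2.08) and Socs3 (5.23 ± 1.305) were the most abundant, and their ranges overlapped from one to the next. The lowest Socs3 value, 3.45 FPKM, lay above the highest value of any other member outside these 3, which was 1.001 FPKM for Lifr. Osmr (0.722 ± 0.180 FPKM) and Lifr (0.581 ± 0.254 FPKM) overlapped each other. Il6ra (0.212 ± 0.0769 FPKM) overlapped Lifr and Osm in its range. The transcript of the receptor that IL-6 binds first was thus far scarcer per length in these tumors than that of gp130. The ligands came last by their means, with Osm at 0.187 ± 0.107, Il6 at 0.182 ± 0.120, Lif at 0.134 ± 0.0650 and Il11 at 0.0565 ± 0.0424 FPKM. Each of these neighbors overlapped the next, so the order among the ligands is not resolved. Nor is their order against Il6ra. The highest Il6 value, 0.384 FPKM, lay above the highest of Il6ra (0.347) and above the lowest of Lifr (0.332) and of Osmr (0.381).

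**Figure D1:**
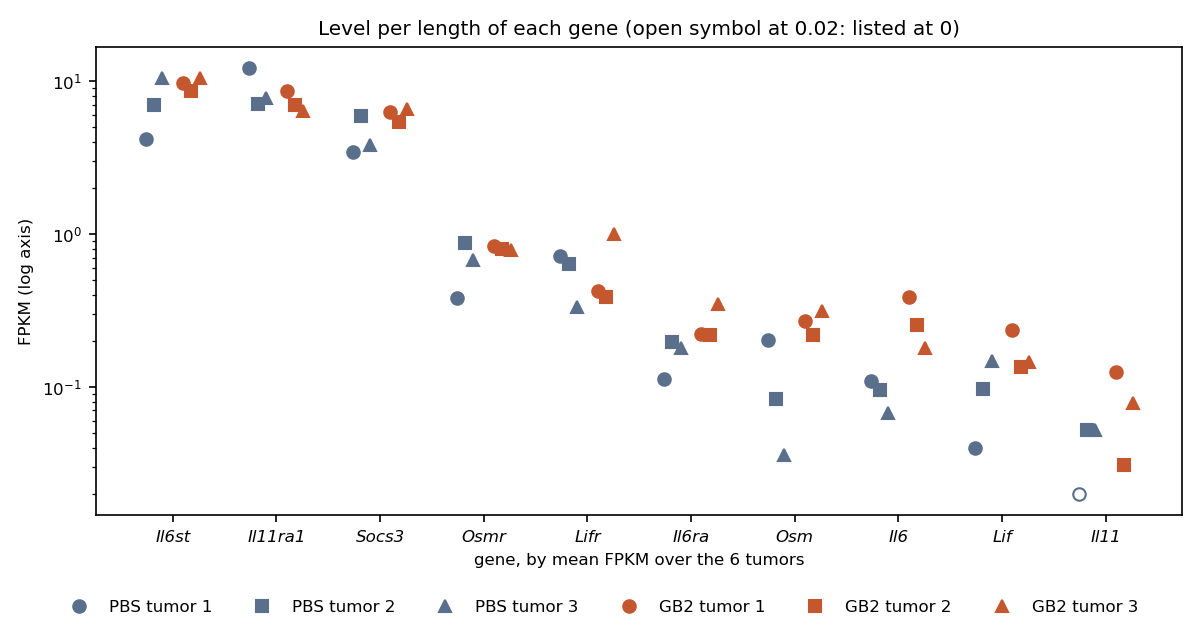
FPKM of the 10 genes on a log axis, with 1 symbol per tumor (blue, PBS; orange, GB2) and genes ordered by their mean. Il6st, Il11ra1 and Socs3 stay above 3.4 FPKM in every tumor, the 4 ligands stay at 0.384 FPKM or less, and Il11 is listed at 0 in PBS tumor 1.

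Among the ligands, Il6 showed the widest separation of the groups. Il6 encodes the inflammatory cytokine that gives the family its name and lies on chromosome 5 from 30218112 to 30224979 on the positions of the table (ENSMUSG00000025746). Its level was 0.321, 0.255 and 0.184 CPM in PBS tumors 1, 2 and 3 and 0.953, 0.661 and 0.459 CPM in GB2 tumors 1, 2 and 3. The groups did not overlap, and the spread was widest among the GB2 tumors, with tumor 1 at the top. The mean was 0.254 ± 0.0687 CPM (SD, n = 3) in PBS tumors and 0.691 ± 0.248 CPM (SD, n = 3) in GB2 tumors. On the log2 scale GB2 tumors were higher by 1.44 (SE 0.52, 95% interval 0.23 to 2.65). The quasi-likelihood test of edgeR gave an unadjusted p of 0.0254 and, after Benjamini-Hochberg adjustment over all genes, 0.621, so Il6 was not called. These values rest on few molecules, since the counts were 19, 18 and 13 in PBS and 80, 55 and 39 in GB2 tumors. They amount to about 12 read pairs over the PBS group (95% exact Poisson interval 6.20 to 20.96) and 44 over the GB2 group (32.0 to 59.1), intervals that cover counting error only. Without GB2 tumor 1 the log2 fold change was 1.14 and the unadjusted p 0.119 in edgeR.

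The sequences upstream of the gene starts are shown because Il6 and Socs3 are the family's usual inflammatory output and its feedback readout. RefSeq starts on GRCm38.p6 were matched by symbol for 9 members, with 12 starts in all, and the 250 bases before each start were searched on both strands for 3 motifs. These were TTCNNNGAA, which STAT dimers can bind, an NF-kappa B form of GGG and TTCC with any 3 letters between them, and TGANTCA, the AP-1 element, and none shares bases with another in the matches found. The STAT letters were found at 1 member, Socs3, and at 7.02% of 32851 starts of all genes. The NF-kappa B letters were found at 1 member, Il6, and at 4.65% of all starts. The AP-1 letters were found at Il6, Il11 and Lif, and at 6.75% of all starts. The Il6 stretch is chr5:30012864-30013113 on the plus strand, with the AP-1 and NF-kappa B matches in capitals, the second starting 44 bases before the gene start. The Socs3 stretch is chr11:117969367-117969616 on the minus strand, with the STAT match in capitals, starting 154 bases before the start. The Il11 and Lif windows of 25 bases hold their AP-1 match in capitals and lie at chr7:4778224-4778248 on the minus strand and chr11:4257331-4257355 on the plus strand. A match is a description of letters and not a site.
Il6: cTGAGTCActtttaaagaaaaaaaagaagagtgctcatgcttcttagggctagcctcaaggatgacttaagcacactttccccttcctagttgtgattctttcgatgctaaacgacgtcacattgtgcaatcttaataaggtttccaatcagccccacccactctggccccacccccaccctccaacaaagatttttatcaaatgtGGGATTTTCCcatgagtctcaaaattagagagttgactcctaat
Socs3: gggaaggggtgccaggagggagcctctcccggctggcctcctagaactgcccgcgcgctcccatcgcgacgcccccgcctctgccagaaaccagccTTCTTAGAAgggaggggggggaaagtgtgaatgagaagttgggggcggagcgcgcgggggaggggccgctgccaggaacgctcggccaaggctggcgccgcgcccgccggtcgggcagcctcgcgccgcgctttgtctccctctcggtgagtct
Il11: gagggagggTGAGTCAggatgtgtc
Lif: agtcagctgTGACTCAggccatagt

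Osm, which encodes oncostatin M, a cytokine of activated myeloid cells, was the second ligand by fold change. Osm and Lif are neighbors on chromosome 11, on the same strand with 16530 bases between them, Osm from 4186420 to 4191026 (ENSMUSG00000058755) and Lif from 4207557 to 4222514 (ENSMUSG00000034394). The Osm level was 0.541, 0.199 and 0.0990 CPM in PBS tumors 1, 2 and 3, and 0.619, 0.529 and 0.741 CPM in the GB2 tumors. PBS tumor 1 reached the range of the GB2 tumors, while the other PBS tumors lay well below it, so that the groups overlapped in CPM by a narrow margin. In FPKM they did not overlap, at 0.202 or less against 0.218 or more. The means were 0.280 ± 0.232 CPM and 0.630 ± 0.106 CPM (SD, n = 3 each), with a log2 fold change of 1.18 (SE 0.68; edgeR, adjusted p 0.757). The value depended on single PBS tumors. Without PBS tumor 1 the log2 fold change was 2.08 and the unadjusted p 0.00926, with an adjusted p of 0.324 in edgeR. It was lower without PBS tumor 2, at 0.99 (unadjusted p 0.258, edgeR), and without PBS tumor 3, at 0.78 (unadjusted p 0.246, edgeR). PBS tumor 3 had under 3 read pairs of Osm, which met the count filter only with the GB2 tumors.

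Lif encodes leukemia inhibitory factor, known from stem cell culture and from tumor stroma. It stood at 0.203, 0.440 and 0.665 CPM in PBS and at 1.04, 0.625 and 0.647 CPM in GB2 tumors. The groups overlapped, since PBS tumor 3 exceeded GB2 tumors 2 and 3, and GB2 tumor 1 was the highest. The log2 fold change was 0.81 with a 95% interval from -0.47 to 2.09 (edgeR, adjusted p 0.776), and it was 0.49 without PBS tumor 1 and 1.25 without PBS tumor 3.
Il11, the ligand of IL-11 receptor alpha (ENSMUSG00000004371, chromosome 7 from 4775372 to 4785856), was at the limit of detection. Its counts were 0, 8 and 8 in PBS and 22, 6 and 15 in GB2 tumors, which is under 3 read pairs in all 3 PBS tumors and in 1 GB2 tumor. A difference in Il11 was not detectable at this depth, and no fold change is given.

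The ligand-specific receptors did not move as a group. Il6ra (ENSMUSG00000027947, chromosome 3 from 89771366 to 89820503), which encodes the IL-6 receptor alpha chain, was at 1.13, 1.77 and 1.61 CPM in PBS and at 1.92, 1.98 and 3.02 CPM in GB2 tumors. All GB2 tumors lay above all PBS tumors, but GB2 tumor 3 alone stood clear of the others. The log2 fold change was 0.61 (SE 0.35, 95% interval -0.20 to 1.43; edgeR, adjusted p 0.757). Without GB2 tumor 3 it was 0.37. Il6 and Il6ra are the 2 of the 9 tested members whose CPM groups did not overlap with GB2 higher, where 8.61% of all tested genes did the same, and 0 of the 9 did so with GB2 lower (6.68% of all tested genes). For both genes p was 0.1 in an exact permutation test, two-sided, and no smaller p is possible with 3 tumors in each group.

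Osmr and Lifr, which encode the partner chains of gp130 for oncostatin M and leukemia inhibitory factor, lie 215644 bases apart on chromosome 15. Osmr (ENSMUSG00000022146, 6843058 to 6904450) was at 5.39, 10.9 and 8.42 CPM in PBS and at 10.2, 10.1 and 9.56 CPM in GB2 tumors. The GB2 tumors were nearly equal and fell inside the range of the PBS tumors, of which tumor 2 was the highest of all. The log2 fold change was 0.27 with a 95% interval from -0.41 to 0.95, and 0.05 without PBS tumor 1 (edgeR). Lifr (ENSMUSG00000054263, 7120095 to 7226970) was at 9.01, 7.08 and 3.69 CPM in PBS and at 4.60, 4.35 and 10.9 CPM in GB2 tumors. The high and low tumors were spread over both groups, and the log2 fold change was 0.00 with a 95% interval from -1.09 to 1.10 (edgeR). Its sign followed single tumors, at -0.56 without GB2 tumor 3, -0.28 without PBS tumor 3 and 0.31 without PBS tumor 1.

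Il11ra1, the IL-11 receptor alpha gene (ENSMUSG00000073889, chromosome 4 from 41699989 to 41769474), was the 1 tested member with a negative fold change. It was at 63.1, 32.99 and 35.6 CPM in PBS and at 38.4, 32.45 and 28.8 CPM in GB2 tumors. PBS tumor 1 was far above the other 5 tumors, which lay close together. The log2 fold change was -0.40 with a 95% interval from -1.05 to 0.25 (edgeR, adjusted p 0.782), and without PBS tumor 1 it was -0.03. Il11ra2 is a gene copy that can share reads with Il11ra1, and it had 14 to 44 counts per tumor against 2325 to 3734 for Il11ra1.

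Il6st (ENSMUSG00000021756, chromosome 13 from 112600604 to 112646620), the gp130 gene, was at 54.2, 80.6 and 120 CPM in PBS and at 108, 99.2 and 117 CPM in GB2 tumors. The PBS tumors spread over a 2.21-fold range and the GB2 tumors over a 1.18-fold range, and PBS tumor 3 was the highest of all. The log2 fold change was 0.35 (SE 0.28; edgeR, adjusted p 0.801). It was 0.68 with an unadjusted p of 0.0231 without PBS tumor 3, and 0.12 without PBS tumor 1. The FPKM ratio of Il6st to Il11ra1 was 0.346, 0.986 and 1.36 in PBS and 1.13, 1.23 and 1.64 in GB2 tumors. In PBS tumor 1 the Il11ra1 level per length thus exceeded that of Il6st several times over, while PBS tumor 3 and the GB2 tumors had more Il6st than Il11ra1, and the groups overlapped (exact two-sided permutation test, p = 0.3). The FPKM ratio of Il6ra to Il6st was 0.0240 ± 0.00605 in PBS and 0.0272 ± 0.00533 in GB2 tumors (SD, n = 3 each; exact two-sided permutation test, p = 0.6).

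Socs3 (ENSMUSG00000053113, chromosome 11 from 117856905 to 117860873), whose product ends gp130 signaling, was at 11.6, 17.6 and 11.35 CPM in PBS tumors. It was at 18.3, 16.4 and 19.1 CPM in GB2 tumors. PBS tumor 2 fell among the GB2 tumors, and the other PBS tumors lay below all of them. The mean was 13.5 ± 3.55 CPM in PBS and 17.9 ± 1.42 CPM in GB2 tumors (SD, n = 3 each), with a log2 fold change of 0.41 and a 95% interval from -0.15 to 0.96 (edgeR, adjusted p 0.758). Without PBS tumor 2 it was 0.64 with an unadjusted p of 0.0290 in edgeR. It was 0.32 without PBS tumor 1 (unadjusted p 0.212, edgeR) and 0.30 without PBS tumor 3 (unadjusted p 0.293, edgeR). The interval reaches from just under no change to a 1.94-fold higher level, so these data do not show that Socs3 was alike in the groups.

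**Figure D2:**
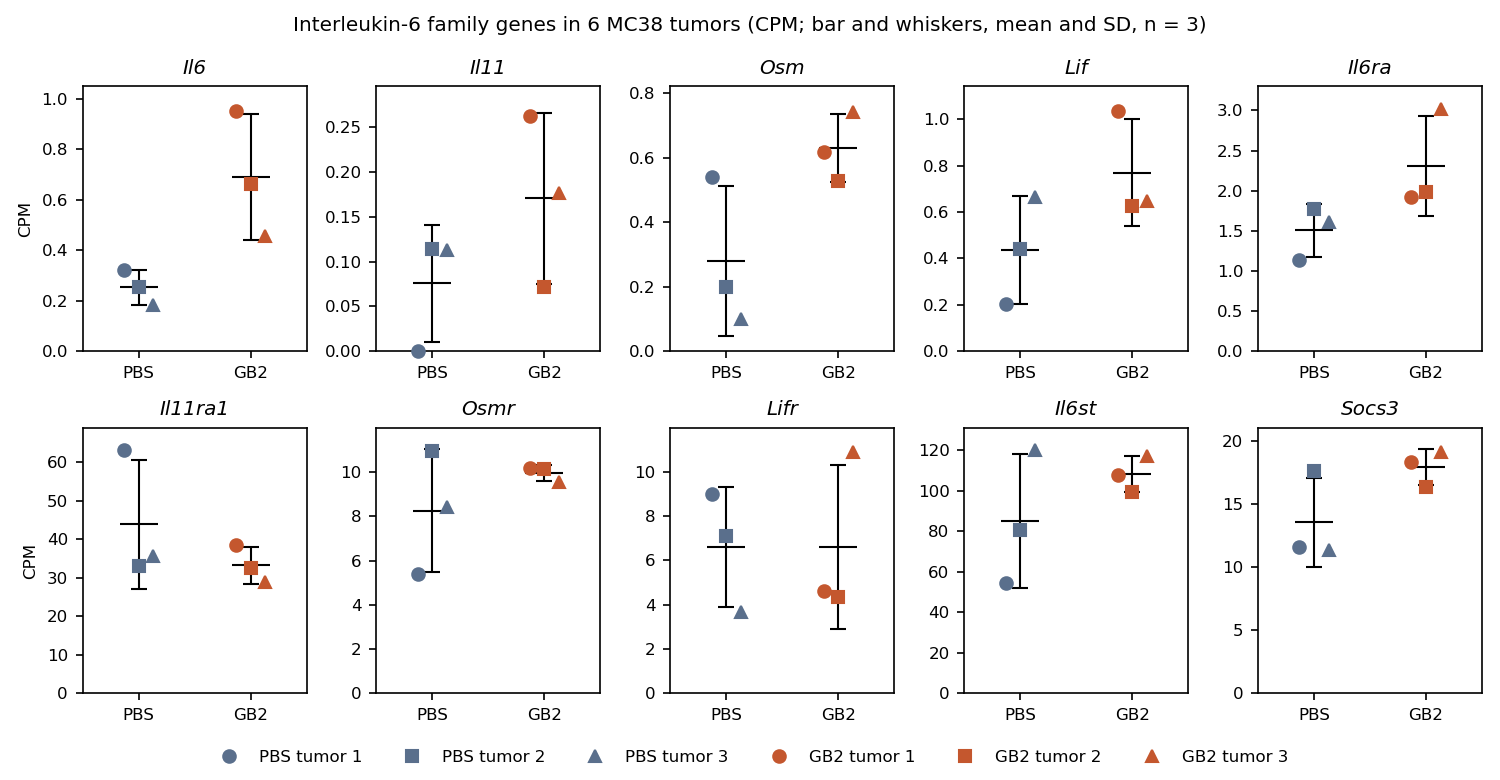
CPM of the 10 genes in each tumor on linear axes from 0, with the mean and SD of 3 tumors per group in black. In Il6 and Il6ra all GB2 tumors lie above all PBS tumors, and PBS tumor 1 is the lowest tumor for Il11, Lif, Il6ra, Osmr and Il6st and the highest for Il11ra1.

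Across the members, 8 of the 9 tested had a log2 fold change above 0, as did 48.3% of all genes tested. The median was 0.41 for the members and -0.02 for all genes tested. No member had an adjusted p under 0.05 (0 of 9; 0% of all genes tested, with adjusted p values of the members between 0.621 and 0.998 in edgeR), nor did DESeq2 or limma call any. When the unadjusted p of edgeR was limited to 0.05 and the change to at least 2-fold, 1 of the 9 passed, Il6, and it was higher in GB2 tumors, where 3.74% of all genes passed in that direction and 4.66% in either. Without the limit on fold, Il6 was still the 1 member, against 6.94% of all genes. DESeq2 called 373 genes of the whole table at an adjusted p under 0.05 and 2-fold. PBS tumor 1 was the lowest of the 6 tumors for 5 of the 10 members and PBS tumor 3 for 4, while GB2 tumor 3 was the highest for 4.

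**Figure D3:**
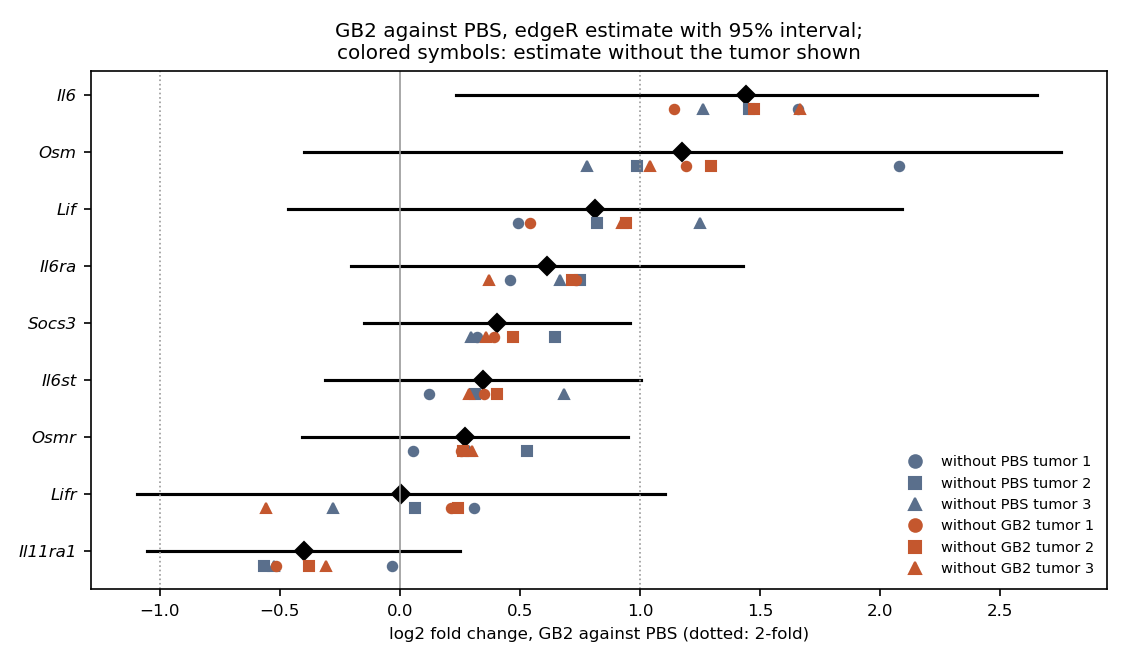
Log2 fold change of GB2 against PBS for the 9 tested genes (diamonds) with 95% intervals, and the estimates when the tumor of the given symbol is left out. The interval of Il6 alone lies above 0, and the largest shift is that of Osm without PBS tumor 1, from 1.18 to 2.08.

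The genes with the most similar pattern over the 6 tumors were found by the root mean square difference of log2 CPM centered on the gene's mean. For Il6 they were Lama3 (difference 0.178) and Fam110d (0.197), and for Osm they were Islr2 (0.168) and Krt17 (0.172). For Lif they were Gm10179 (0.0796) and Zfp114 (0.122), and for Il6ra Dock8 (0.0616) and 1500004A13Rik (0.0906). For Socs3 the nearest was Stat2 (0.0870), which encodes a mediator of the type I interferon response, followed by Rrm2 (0.0887). For Il6st they were Pcdh7 (0.0574) and Zfp619 (0.0861), and for Il11ra1 Bvht (0.0272) and B3gat3 (0.0531). For Osmr they were Gm44243 (0.0594) and Dqx1 (0.0626), and for Lifr Gm16124 (0.102) and Gm14027 (0.114).

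The rest of the pathway was read from lists of named genes. Of 12 other ligands and receptors of the gp130 family, 7 were tested, 5 of them with a log2 fold change above 0, and 0 passed these unadjusted limits in edgeR. Their median was 0.60. The highest log2 fold change of this list was that of Il27ra, the IL-27 receptor chain that pairs with gp130. It was at 0, 0.695 and 0.184 CPM in PBS and at 0.846, 0.361 and 0.835 CPM in GB2 tumors. The groups overlapped, and PBS tumor 1 had no counts. The log2 fold change was 1.20 (edgeR, unadjusted p 0.327, adjusted p 0.821), and it was 0.64 without PBS tumor 1 and 2.83 without PBS tumor 2.

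Of the 15 genes for JAK kinases, STATs, adaptors and sheddases, all were tested, 13 had a log2 fold change above 0, and 0 passed the same limits. Their median was 0.25, and the lowest was Gab1, an adaptor protein gene, at -0.11. Stat3, the main STAT of this family, was at 118, 165 and 175 CPM in PBS and at 125, 181 and 179 CPM in GB2 tumors, and tumor 1 was the lowest of each group. Stat3 was added after its values were seen, and its log2 fold change was 0.08, with values from -0.06 to 0.24 when single tumors were left out. Of 13 inhibitors other than Socs3, 7 had a log2 fold change above 0, 0 passed, and the median was 0.09. The ends were Ptprc, the CD45 phosphatase of all leukocytes, at 1.20 (unadjusted p 0.0523, edgeR), and Ptpn2, a phosphatase of JAKs and STATs, at -0.46. Without GB2 tumor 3 Ptprc was at 0.75 (unadjusted p 0.208, edgeR). Ptprc passed the unadjusted limits with DESeq2, without the count filter, and without PBS tumor 1 or GB2 tumor 1. Ptpn2 was at 132 CPM in PBS tumor 1 and between 63.3 and 74.8 CPM in the other 5 tumors, and without PBS tumor 1 its log2 fold change was -0.10.

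The 28 STAT3 target and acute phase genes split in both directions. Of the 27 tested, 14 were above 0 and 13 below, with a median of 0.05. Past the unadjusted limits, 1 was higher (3.74% of all genes in that direction) and 2 were lower (0.918% of all genes in that direction), and 0 had an adjusted p under 0.05 in edgeR. The higher gene was Il4ra, which encodes the IL-4 receptor alpha chain, at 3.91, 5.63 and 4.43 CPM in PBS and at 11.55, 10.95 and 19.0 CPM in GB2 tumors. For Il4ra edgeR gave a log2 fold change of 1.57 (SE 0.30, unadjusted p 0.00102, adjusted p 0.216), which lay between 1.27 and 1.73 when single tumors were left out. The lower genes were Saa1 and Saa2, which encode serum amyloid A acute phase proteins. Saa1 was at 0.355, 1.82 and 4.61 CPM in PBS and at 0.0238, 0.0842 and 0.188 CPM in GB2 tumors. Saa2 was at 0.135, 1.49 and 3.08 CPM in PBS and at 0, 0.156 and 0.0706 CPM in GB2 tumors. The PBS tumors differed widely from each other, and for Saa2 the groups overlapped at PBS tumor 1. Counts in the GB2 tumors were only 2, 7 and 16 for Saa1 and 0, 13 and 6 for Saa2. That is under 3 read pairs in GB2 tumors 1 and 2 for Saa1 and in GB2 tumors 1 and 3 for Saa2. The size of both fold changes is therefore poorly measured. The log2 fold changes of -4.49 and -4.35 had unadjusted p values of 0.00344 and 0.0126 (edgeR, adjusted p 0.289 and 0.477), and these near-identical gene copies can share reads, so their separate values are uncertain. DESeq2, which called 373 genes of the whole table where edgeR called 0, called all 3 genes, with adjusted p values of 3.9e-04 for Il4ra, 1.2e-04 for Saa1 and 0.00698 for Saa2. These p values carry a limit, since on data simulated from these libraries a larger share of the DESeq2 calls than of the edgeR calls fell on genes that had not been changed. DESeq2 also called more of the changed genes there. The simulation used dispersions estimated by edgeR and only genes past its count filter, so it cannot decide which tool is nearer the truth here. The number of list genes past the unadjusted limits was 0 with limma on log2(FPKM + 1), 1 with counts divided by 4 and 5 without PBS tumor 1.
The fibrinogen genes of the list were picked after their values were seen. Fga was at 18.9, 31.85 and 29.2 CPM in PBS and at 0, 17.6 and 14.45 CPM in GB2 tumors. Fgg was at 15.9, 31.8 and 24.3 CPM in PBS and at 0, 14.0 and 12.2 CPM in GB2 tumors. In both genes all GB2 tumors lay below all PBS tumors, and GB2 tumor 1, the tumor low in Alb, had 0 counts. Fgb was at 17.8, 35.0 and 33.5 CPM in PBS and at 0.131, 19.6 and 14.1 CPM in GB2 tumors, so its groups overlapped, and it had 11 counts in GB2 tumor 1. The log2 fold changes were -1.32 for Fga (edgeR, adjusted p 0.835), -1.46 for Fgg (adjusted p 0.815) and -1.35 for Fgb (adjusted p 0.809), and with single tumors left out they ran from -1.87 to -0.73 for Fga, from -1.96 to -0.87 for Fgg and from -2.01 to -0.77 for Fgb. Vegfa, which encodes the angiogenic growth factor, was also picked after its values were seen. It was at 356, 489 and 514 CPM in PBS and at 245, 356 and 253 CPM in GB2 tumors. The groups overlapped by a narrow margin, with PBS tumor 1 at 355.7 CPM and GB2 tumor 2 at 356.0 CPM. The log2 fold change was -0.67 (edgeR, unadjusted p 0.0213, adjusted p 0.584). With single tumors left out its unadjusted p in edgeR rose to as much as 0.0848.

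Markers of several cell types that make or answer IL-6 family cytokines were at higher levels in the GB2 tumors, as was Il6, although 0 of them had an adjusted p under 0.05 in edgeR. Past the unadjusted limits in edgeR and higher in GB2 tumors were 9 of 10 macrophage, 5 of 7 neutrophil, 9 of 9 fibroblast and 4 of 8 endothelial markers, where 3.74% of all genes passed. Of the tested mast cell markers 2 of 4 passed, Mcpt4 and Tpsb2. Tpsb2 and also Cpa3, which did not pass (unadjusted p 0.0574, edgeR), met the count filter only with the GB2 tumors. Their counts in PBS tumors were 12, 8 and 0 for Cpa3 and 0, 0 and 12 for Tpsb2. The mast cell count and median therefore favor genes high in GB2 tumors and cannot show a difference by themselves. The same count was 0 of 8 for T cell, 0 of 6 for adipocyte, 1 of 7 for muscle, 1 of 6 for keratinocyte and 1 of 6 for epithelial markers. These single genes, named after their values were seen, were Actn3 for muscle, Trp63 for keratinocytes and Epcam for epithelium. Epcam, an adhesion molecule gene of epithelial cells, was at 0.457, 0.227 and 0.170 CPM in PBS and at 0.762, 0.878 and 1.01 CPM in GB2 tumors (log2 fold change 1.64; edgeR, unadjusted p 0.0145, adjusted p 0.508). The 10 macrophage markers were all above 0, with a median log2 fold change of 1.94 and a summed level of 65.2 to 92.3 CPM in PBS and 254 to 354 CPM in GB2 tumors. Of the 8 neutrophil markers, 7 were tested and all 7 were above 0 (median 1.86), with a summed level of 4.26 to 6.51 CPM against 21.85 to 24.2 CPM, while Ly6g was at 0 in all tumors. Mmp8, Retnlg and Cxcr2 also met the count filter only with the GB2 tumors. Their PBS counts were 19, 4 and 4 for Mmp8, 18, 0 and 0 for Retnlg, and 7, 17 and 10 for Cxcr2. The median is the value of Mmp8, so the neutrophil count and median have the same limit as those of mast cells. S100a8, S100a9, Csf3r and Mmp9 met the filter in the PBS tumors as well. All 9 fibroblast markers were above 0 (median 1.55, summed 316 to 555 CPM against 1057 to 1498 CPM), and 7 of 8 endothelial markers were (median 1.16, summed 165 to 282 CPM against 312 to 348 CPM). The 4 tested of 7 mast cell markers had a median of 2.07, with a summed level of 4.08 to 6.38 CPM in PBS and 10.6 to 14.0 CPM in GB2 tumors. In these 5 lists the summed levels of the groups did not overlap, nor did they for the 7 skeletal muscle markers (median 0.69, summed 97.3 to 165 CPM against 183 to 227 CPM). The 8 T cell markers (median -0.32) summed to 1.43 to 8.42 CPM in PBS and 2.80 to 7.19 CPM in GB2 tumors. The 6 adipocyte markers (median 0.69) and the 6 keratinocyte markers (median 0.72) overlapped between the groups in their sums, at 16.3 to 66.5 against 59.8 to 82.1 CPM and at 20.8 to 83.5 against 67.7 to 117 CPM. The part of these cell types in the Il6, Osm and Il6ra values was not tested.

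**Figure D4:**
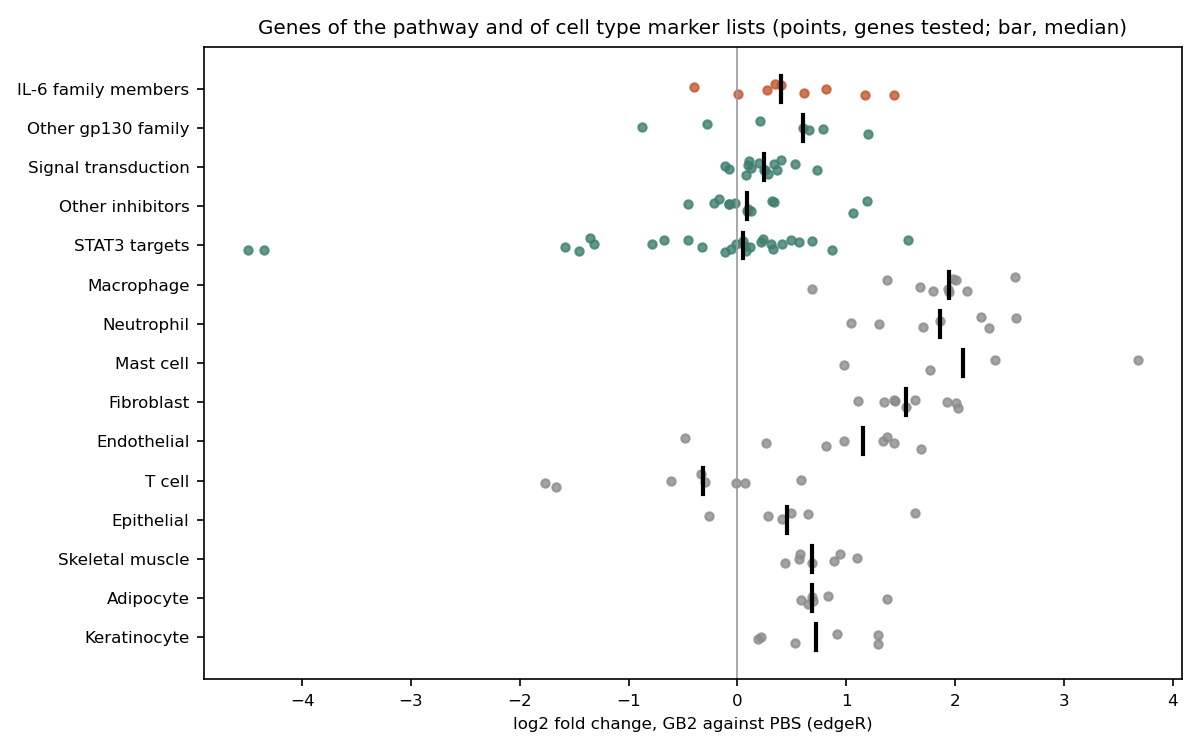
Log2 fold change of GB2 against PBS for each tested gene of the IL-6 family (orange), the pathway lists (green) and the cell type marker lists (gray), with the median of each list as a bar. The members lie between -0.40 and 1.44, the macrophage, neutrophil, mast cell and fibroblast medians lie at 1.55 or above, and Saa1 and Saa2 are the points near -4.4. The neutrophil and mast cell medians include genes that met the count filter only with the GB2 tumors.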

How the data were processed

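RNA of 6 MC38 tumors was poly-A selected and sequenced as stranded paired-end libraries, per the labels. The estimated counts and the FPKM values were deposited by the authors in 1 table, not pooled over tumors. The estimated counts are unscaled whole numbers, and FPKM are divided by transcript length and library total. The submitters' processing notes list cutadapt 1.9, HISAT2 2.2.1, StringTie 2.1.6, DESeq2 and edgeR with mm10, without roles. Of 31999 gene IDs shared with GENCODE M21 on GRCm38, 595 (1.86%) match in start and end, and the positions printed for genes are those of the table and are not mixed with the GRCm38.p6 promoter positions.

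The tests were run on the counts with edgeR 4.0.16 (R 4.3.3), using filterByExpr with a minimum count of 10, TMM scaling, glmQLFit and glmQLFTest over 19602 genes with Benjamini-Hochberg adjustment over all of them. The log2 CPM used a prior count of 2. Standard errors come from the test statistic. Calls needed at least a 2-fold change with an adjusted p under 0.05, and counts at an unadjusted p under 0.05 and 2-fold are given beside these. The common dispersion of 0.164 corresponds to 40.5% variation within groups. Alternatives used DESeq2 1.42.0, limma 3.58.1 on log2(FPKM + 1) and log2(FPKM + 0.1) for genes with FPKM of at least 0.1 in 3 tumors, median-of-ratios scaling, no filter, counts divided by 4, a replicate block and each tumor left out. Members and lists were chosen with earlier results of these data known. Named genes are the members, the genes of the pathway lists past the unadjusted limits or at the ends of a list, and for each member the 2 genes nearest in pattern. Marker lists are given by counts and summed levels. Of the pathway genes that this rule names, 2 are not reported here.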

Additional observations from a re-analysis of the deposited data

How the results depend on the processing

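Over 13 alternative settings, 112 of 115 values of the 9 tested members kept the direction reported, and no member reached an adjusted p under 0.05 (smallest 0.324, Osm without PBS tumor 1, edgeR). The 3 exceptions were those of Lifr, at -0.076 with the replicate block, -0.28 without PBS replicate 3 and -0.56 without GB2 replicate 3, in a range from -0.56 to 0.31 with a tumor left out. Gab1 was at 0.023 without PBS replicate 3, in a range from -0.21 to 0.023. The cause was not tested. The number of genes called in the whole table was 0 in edgeR and limma and 373 in DESeq2. On data simulated with the dispersions of edgeR, DESeq2 called unchanged genes more often than edgeR did, and changed genes as well. The number past an unadjusted p under 0.05 and 2-fold was 913, and 131 with limma on log2(FPKM + 1), where the added 1 compresses low values. It ran from 707 to 1380 with a tumor left out, the highest without PBS tumor 3.

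The passing of 1 member, Il6, depended on the setting. Il6 had an unadjusted p of 0.0301 with limma on log2(FPKM + 1) and of 0.0248 on log2(FPKM + 0.1). Its log2 fold changes there, 0.22 and 0.94, were under the 2-fold limit, and no adjusted p was under 0.05. The number of members past the limits of unadjusted p and fold was thus 0 in both limma settings. It was also 0 with counts divided by 4, where Il6 and Osm have too few counts to be tested, and 0 with the replicate block. With a tumor left out it ran from 0 to 2: 2 without PBS tumor 1 (Il6 and Osm), 1 without GB2 tumor 3, and 0 without each of the other 4. Il6 kept a log2 fold change of 0.22 to 1.67 over all settings that tested it. Tumors share only a number between groups: the correlations of same-numbered tumors, each taken against its group's mean, were 0.03, 0.15 and -0.25 over genes, and 764 genes passed the unadjusted limits with the replicate block. About 4 counts per read pair leave Il6, Osm, Lif and Il11 at few read pairs per tumor, which limits what 3 tumors per group can show for the ligands.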
